A study of Mus musculus with 2 samples.

Results

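The BCL2 family decides whether a cell keeps its mitochondria intact or dies by the intrinsic route of apoptosis. Pro-survival members hold the effectors BAX and BAK in check, BH3-only members bind the pro-survival proteins or the effectors in response to stress, and freed effectors open the outer mitochondrial membrane and release cytochrome c. In blood-forming tissue of the mouse, BCL-XL is needed by maturing red cells, MCL1 by stem cells and lymphocytes, and BCL2 by mature lymphocytes, while BIM removes surplus lymphocytes. The 10 genes described here were given as a list, 3 pro-survival genes (Bcl2, Bcl2l1 and Mcl1), 2 effectors (Bax and Bak1) and 5 BH3-only genes (Bad, Bcl2l11, Bid, Bbc3 and Pmaip1), out of 21853 protein-coding genes of GENCODE vM21. All 10 were found in the annotation.

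Open chromatin was mapped by DNase-seq, an assay of the cuts that DNase I makes in nuclei, on spleen of male B6CASTF1/J mice aged 4 days, F1 hybrids of C57BL/6J and CAST/EiJ. The study has 1 group of 2 biological replicates and no treatment or control, and the labels give the replicates different animal numbers but the same donor entry. They were taken as separate animals, and if they are not, the spread between them is technical. A peak is a stretch of open chromatin called in 1 library, and its signal is the authors' value on a scale that is not stated. A footprint is a short protected stretch, which may lie inside or outside a called peak. The longer peak lists held 80323 peaks in replicate 1 and 88723 in replicate 2, the stricter lists 51123 and 56521, and the footprint lists 217159 and 252901. The number of reads is unknown, so no counting interval can be given.

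At this age the mouse spleen still makes blood. Promoters of 7 of 7 erythroid marker genes were open in both libraries, meaning a peak within 1 kb of a start site, against 60.8% of all protein-coding genes. The signals of these 7 summed to 57.8 in replicate 1 and 43.2 in replicate 2. Of the B cell markers 4 of 5 were open (summed signal 10.1 and 12.1) and of the T cell markers 2 of 4 (2.69 and 2.36, with Cd3e and Cd247 without a peak). The neutrophil markers had 1 of 4 open (1.81 and 2.79) and the macrophage markers 1 of 4 (0.559 and 0.707). All 3 of 3 endothelial markers were open (2.10 and 2.03). The marker lists differ in length, so their sums are not like for like between cell types. Among stroma markers 1 of 3 was open (0.855 and 0.470), and Col3a1 had no peak. The hepatocyte markers Alb and Ahsg had no promoter peak. In tissue of mixed cells, fewer cells with an open site and a site less open in each cell cannot be told apart, which holds for every value given here.

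All 10 genes had a promoter peak in both libraries, where a promoter peak lies within 1 kb of any protein-coding start site of the gene. Among all protein-coding genes the share was 60.8%. All 10 also had a promoter peak of the stricter list in both libraries, against 55.3% of all genes, and a promoter footprint in both, against 59.6% of all genes. Presence of a peak therefore did not tell the members apart, but its height did. The highest promoter peak of a gene, averaged over the 2 libraries, ran from 1.41 at Bcl2 to 13.2 at Bcl2l1, a 9.32-fold range. Its median over the members was 11.2, against 5.82 over the 13282 genes with a promoter peak in both libraries, called open genes below, and 8 of the 10 members lay above that median. All members but Bak1 and Bbc3 were CpG-rich, with an observed to expected CpG ratio of at least 0.5 at the most upstream start site. Among all CpG-rich genes 89.8% were open, and the median signal of the open ones was 7.09.

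**Figure D1:**
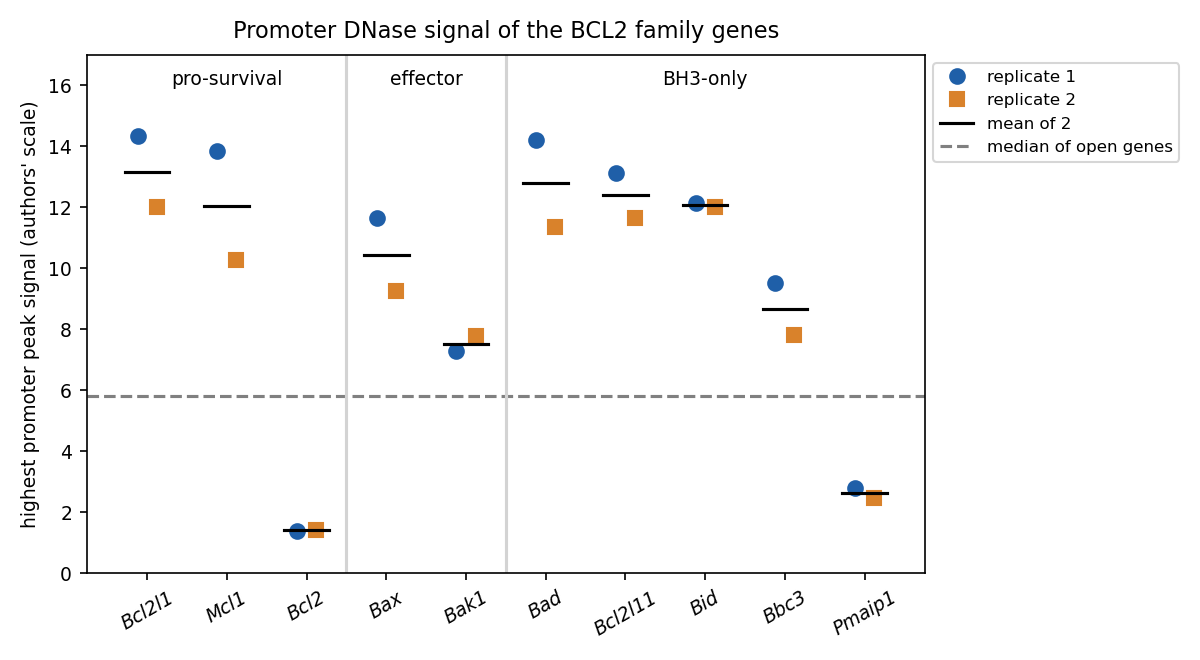
Highest promoter peak signal (vertical axis, authors' scale) of the 10 BCL2 family genes, grouped by role, with replicate 1 as circles, replicate 2 as squares and their mean as a bar. The dashed line is the median of open genes, 5.82, and only Bcl2 and Pmaip1 lie below it, in both libraries.

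The order by mean signal was Bcl2l1, Bad, Bcl2l11, Bid, Mcl1, Bax, Bbc3, Bak1, Pmaip1 and Bcl2. The first 5 stood in a different order in each library, and neighbours among them had overlapping ranges, so their order is not resolved with 2 libraries. Bax, Bbc3, Bak1, Pmaip1 and Bcl2 held places 6 to 10 in both libraries, although the ranges of Mcl1 and Bax and of Bax and Bbc3 overlapped. No role was uniformly high or low. The pro-survival genes spanned 1.41 to 13.2, the effectors 7.53 to 10.4 and the BH3-only genes 2.64 to 12.8. The place of Bad and the value of 12.8 rest on a peak over a start site of the neighbour Gpr137. With peaks over other genes' start sites left out, Bad had 7.33, below Bak1 in the mean. The places of the genes between them then shift, and the highest BH3-only gene is Bcl2l11 with 12.4. These levels are peak heights and not amounts of transcript.

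The libraries differed little at the highest peaks of these promoters. Signals ran higher in replicate 1 across the genome, with a median ratio of replicate 1 to replicate 2 of 1.12 over 60596 shared regions, where a shared region joins overlapping peaks of both libraries. After centring on that median, the log2 ratio of the highest peaks at the 10 member promoters lay between -0.26 (Bak1) and 0.27 (Mcl1). This was inside the 5th to 95th percentile of all shared regions, which ran from -0.59 to 0.48. For Bbc3 the highest peak was not the same in both libraries, so its ratio joins different peaks. The Bbc3 peak of 9.52 in replicate 1 had 6.26 in replicate 2, a wider gap than in the pair used.

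Bcl2l1 encodes BCL-XL, the pro-survival protein of maturing red cells, and had the highest mean among the members. Its highest promoter peak had a signal of 14.3 in replicate 1 and 12.0 in replicate 2 (13.2 ± 1.66, SD, n = 2), which was at percentile 81.7 of open genes. The gene lies on the minus strand at chr2:152780668-152831728 and has 8 coding start sites. Both libraries placed 3 shared regions at its start sites, more than at Mcl1 or Bcl2. One covered the most upstream start site (13.8 and 11.1), one lay in the first part of the gene, 169 bp from the nearest coding start site (14.3 and 12.0), and one covered start sites further in (8.31 and 6.11). Summing the peaks in the window gave Bcl2l1 33.1, at percentile 98.1 of open genes. By that sum Bad stood above it, with 34.7 at percentile 98.6, and Bbc3 had 19.1 at percentile 87.3. The Bad sum includes peaks over start sites of the neighbour Gpr137, at 14.2 and 11.4 and at 11.6 and 9.65. The Bcl2l1 windows held 18 footprints in replicate 1 and 22 in replicate 2, of which 15 were found in both. Over open genes the median was 8 in each library. Windows grow in width with the start sites of a gene, of which Bcl2l1 and Bad have 8 each and Mcl1 and Bcl2 2 each. Numbers of peaks, their sums and footprint counts are therefore not like for like between genes.

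The highest of these regions, the intronic one at chr2:152831281-152831500 in mm10, is printed on the gene's strand because its footprints fall on readable words. Capitals mark bases inside a footprint of both libraries, here and in every sequence below.
Bcl2l1 intronic promoter region: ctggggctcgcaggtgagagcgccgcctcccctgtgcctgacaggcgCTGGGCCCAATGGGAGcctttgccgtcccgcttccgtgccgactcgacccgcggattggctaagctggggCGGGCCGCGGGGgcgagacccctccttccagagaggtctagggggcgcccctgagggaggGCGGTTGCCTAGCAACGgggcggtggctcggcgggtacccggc
A CCAAT box stands at positions 54 to 58 of this sequence, wholly in capitals. The word CCAAT, on either strand, was found in 37.8% of all RefSeq promoters of 300 bases and in 24.7% of 200-bp windows on promoter regions. At positions 181 to 193 the last footprint holds the arms GTTGCC and GCAAC, set 2 bases apart, the palindrome to which RFX factors are known to bind. All 13 bases are capitals. This word was searched for after the sequence had been seen, and 0.164% of 20143 RefSeq promoters hold it on either strand. A match names letters only, and no factor was measured.

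Away from the promoters, the Bcl2l1 window (gene body plus 50 kb each side) held 23 shared regions, 16 of them more than 1 kb from any coding start site and 9 of these inside introns of the gene. The strongest of the 16 lay past the gene's 3′ end at chr2:152766581-152766760, with signals of 8.83 and 8.10 (8.47 ± 0.521, n = 2), at percentile 99.0 of the 38204 shared regions of its kind in the genome. A second, lower region stood beside it (3.08 and 2.46). The stronger one lay 65057 bp from the most upstream Bcl2l1 start site. Nearer to it were a coding start site of Cox4i2, 11487 bp away, and a start of the miRNA gene Gm23802, 6129 bp away. The strongest intronic region of Bcl2l1 had signals of 4.76 and 3.33 (4.04 ± 1.01, n = 2), at percentile 94.9, and 6 footprints found in both libraries. It lies at chr2:152789141-152789400 and is shown because one of its footprints ends on a GATA word.
Bcl2l1 intronic region: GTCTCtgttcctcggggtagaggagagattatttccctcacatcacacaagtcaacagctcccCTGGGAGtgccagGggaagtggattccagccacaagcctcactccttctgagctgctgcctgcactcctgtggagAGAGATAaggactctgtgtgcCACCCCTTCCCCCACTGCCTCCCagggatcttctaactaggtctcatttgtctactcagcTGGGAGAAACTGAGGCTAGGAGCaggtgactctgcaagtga
The word AGATAA, the letters read by GATA factors, stands at positions 141 to 146, and 5 of its 6 bases are capitals. This word, on either strand, was in 14 of the 96 member regions away from start sites (14.6%), against 11.7% of all such regions of the genome. The footprint that follows it, at the string of C bases, is longer and holds none of the words searched.

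Mcl1 encodes a short-lived pro-survival protein that blood stem cells and lymphocytes need. Its promoter peak had signals of 13.8 and 10.3 (12.0 ± 2.53, n = 2, percentile 77.8), the widest gap between the libraries among the members. The peak ran over the start site, at chr3:95658601-95658820, and a broad weak region followed it inside the gene (1.96 and 1.45). With 8 footprints in replicate 1 and 6 in replicate 2, of which 4 were in both, the windows held about as many as the median open gene. The gene is short, 4389 bp, and none of its 12 regions over 1 kb from a coding start site lay inside it.

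The regions downstream of Mcl1 stood in a cluster. Of the 12, 9 lay downstream, and 7 of these fell between 13837 and 18153 bp from the start site. The strongest, at chr3:95674281-95674520 and 15613 bp downstream, had signals of 6.58 and 5.59 (6.08 ± 0.696, n = 2, percentile 97.9). The coding start site nearest to it was one of Adamtsl4, 13338 bp away. A non-coding Adamtsl4 transcript starts 2631 bp from it and the RefSeq gene Gm52627 2109 bp from it. The sequence of this strongest region is printed because 1 of its 3 shared footprints overlaps a STAT word.
Mcl1 downstream region: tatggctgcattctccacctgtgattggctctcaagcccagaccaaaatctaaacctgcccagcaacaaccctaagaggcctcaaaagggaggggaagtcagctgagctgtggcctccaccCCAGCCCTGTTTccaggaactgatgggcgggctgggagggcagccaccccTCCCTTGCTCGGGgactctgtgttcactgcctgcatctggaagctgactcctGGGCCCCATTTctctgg
The word TTCNNNGAA, the palindrome read by STAT factors, stands at positions 132 to 140 with 2 of 9 bases in capitals. It was in 4 of the 96 member regions of this kind (4.17%) and in 5.03% of all such regions. Nearer the gene, 7523 bp downstream of the start site, a region had signals of 5.15 and 3.22, and 13287 bp upstream another had 2.73 and 2.45.

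Bcl2, the founding member, had the weakest promoter of the 10. Its highest promoter peak had signals of 1.40 and 1.42 (1.41 ± 0.0136, n = 2), at percentile 21.0 of open genes and percentile 14.8 of CpG-rich open genes. The small SD holds for signals as deposited, since the centred log2 ratio was -0.18 at Bcl2, against 0.0086 at Bcl2l11. The Bcl2 peak was weak but not narrow. Both libraries called the same 500-bp stretch over the start site, chr1:106714001-106714500, and the same 200-bp stretch inside the gene (1.35 and 1.25), and both stretches are in the stricter lists. The lowest FDR in the promoter windows was 7.59e-16 in replicate 1 and 2.69e-18 in replicate 2. At an FDR of at most 0.001 stood 983 and 1132 bases of the windows, more than at Bax (625 and 544) or Bid (642 and 596), whose peaks were far higher. The windows of these genes differ in width with their start sites.

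The part of that stretch before the start site, chr1:106714275-106714500 on the minus strand, is shown beside the strong promoters for its letters.
Bcl2 promoter: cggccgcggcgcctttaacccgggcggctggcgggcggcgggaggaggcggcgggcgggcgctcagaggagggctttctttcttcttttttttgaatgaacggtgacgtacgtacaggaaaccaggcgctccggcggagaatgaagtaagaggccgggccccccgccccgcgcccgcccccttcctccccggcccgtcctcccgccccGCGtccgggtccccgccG
The GC box word GGGCGG, on either strand, occurs 6 times in it, and the ratio of observed to expected CpG in the 1000 bp around the start site was 0.870. That ratio lies between those of Bcl2l1 (0.762) and Mcl1 (0.955), so a low peak stood on CpG-rich sequence. Of its 226 bases, 4 were in a footprint of both libraries (1.77%), against 20.5% of the 220 bases of the Bcl2l1 region. These shares are not like for like, since the Bcl2 stretch is printed without its UTR bases and the Bcl2l1 region whole. Over its full 500 bp the Bcl2 stretch held 4 footprints found in both libraries, and the Bcl2l1 region held 3. The Bcl2 windows as a whole held 12 footprints in each library, 7 of them in both.

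The Bcl2 gene spans 176097 bp, and its window of 276 kb held 9 shared regions. That is 3.26 per 100 kb, below the median of 4.52 over all genes. The 5 regions away from start sites had mean signals of at most 1.78. That highest one lay past the 3′ end of the gene, 202483 bp from the start site, at chr1:106511701-106511880, with signals of 1.75 and 1.81. A footprint of both libraries in it holds the CTCF core word AGGGGGC or lies within 5 bp of it, and so does one in an intronic region of the gene (0.774 and 1.28). The promoter of the neighbour Kdsr, in the same window, had signals of 9.76 and 8.17, so not every promoter in the window was low.

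**Figure D2:**
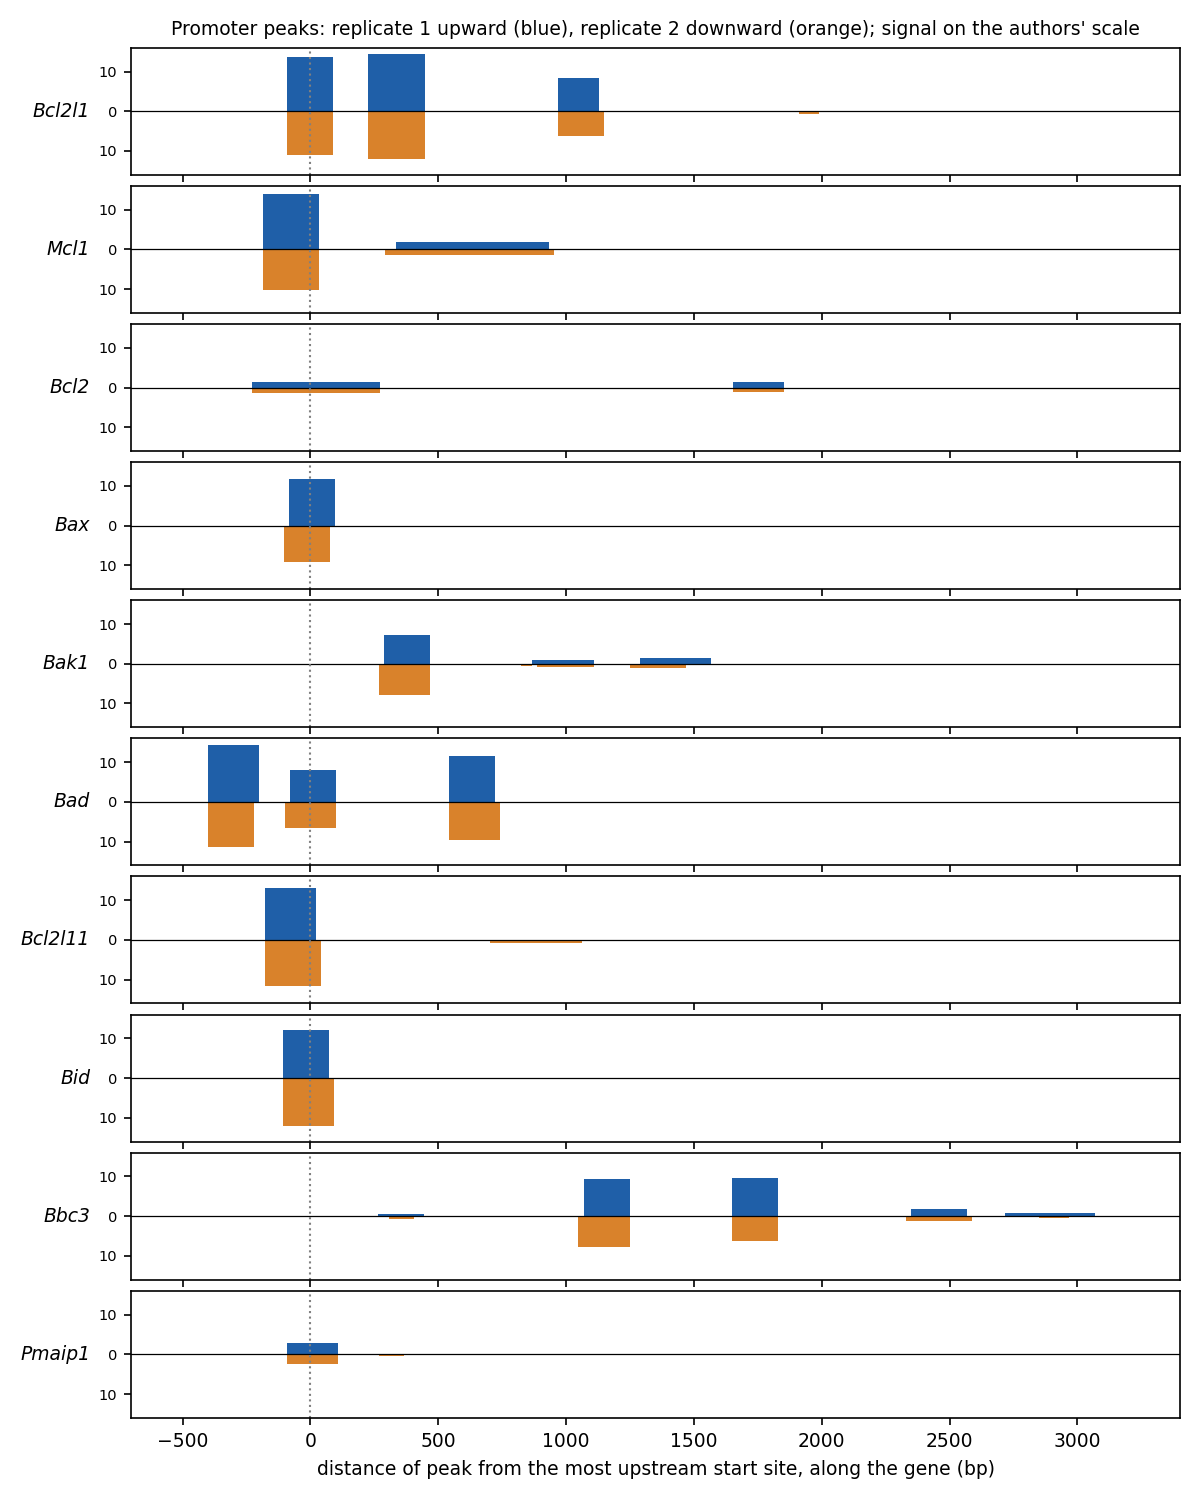
Promoter peaks of the 10 genes by distance from the most upstream start site along the gene (horizontal axis, bp), with replicate 1 drawn upward and replicate 2 downward and bar height as signal on the authors' scale. Bcl2 has a low, wide block of 500 bp over its start, Bbc3 has its high peaks over 1000 bp inside the gene, and Bad has 3 separate peaks (its peaks beyond 3400 bp are not drawn).

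Bax and Bak1 encode the effectors that form pores in the mitochondrial outer membrane. Bax had 1 promoter peak in each library, of 11.6 and 9.24 (10.4 ± 1.70, n = 2, percentile 72.0), over its most upstream start site. Bak1 had signals of 7.29 and 7.77 (7.53 ± 0.336, n = 2, percentile 59.1), and was higher in replicate 2 as deposited, as was Bcl2. After centring, Bid too was on that side, at -0.15 on the log2 scale. Both Bax values lay above both Bak1 values. The promoters also differed in letters. The CpG ratio was 0.708 at Bax and 0.279 at Bak1, and of CpG-poor genes (ratio under 0.5) 26.4% were open, against 89.8% of CpG-rich genes.

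The Bax region before the start site, chr7:45466899-45467000 on the minus strand, is short enough to read whole.
Bax promoter: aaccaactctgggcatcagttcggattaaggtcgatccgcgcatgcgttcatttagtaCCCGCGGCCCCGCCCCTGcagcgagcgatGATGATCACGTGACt
The E-box word CACGTG, read by MYC and related factors, stands at positions 94 to 99, next to the start site and wholly in capitals. It was found in 8.03% of all RefSeq promoters. A GC box and a KLF word (CCNCNCCC) share the footprint before it, and 1 p53 decamer lay further upstream in the RefSeq promoter, outside the printed stretch. BAX is a known p53 target in human cells. A p53 decamer was in 7.29% of all promoters. The Bax promoter region overlaps the annotated gene Gm45808, to which its peak may also belong.

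Bak1's peak lay on its downstream start site, 368 bp into the gene and 519 to 539 bp from a start site of Ggnbp1. Its windows held 11 footprints in each library, and 9 were in both. One of these, 44 bp wide, holds or lies within 5 bp of the PU.1 word GAGGAAGT, the letters read by a factor of myeloid and B cells. The word was in 2 of 15 member promoters of the RefSeq table and in 3.11% of all promoters. Both effector windows were dense in regions, with 17 shared regions around Bax and 20 around Bak1, or 16.2 and 18.3 per 100 kb. Around Bax, 8 of the 17 were promoters of other genes, and Ftl1, which encodes the ferritin light chain, lay nearest to the strongest region away from start sites (6.37 and 5.01, 1017 bp from an Ftl1 start).

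Bcl2l11 encodes BIM, a BH3-only protein that binds every pro-survival member. Its promoter peak had signals of 13.1 and 11.7 (12.4 ± 1.05, n = 2, percentile 79.1) at chr2:128125861-128126080, over the start site. A second region of similar height, with signals of 14.5 and 10.9 (12.7 ± 2.55, n = 2), lay 1433 bp further in, at chr2:128127361-128127580. It counted as away from promoters because the nearest coding start site was 1311 bp off, and among such regions it was at percentile 99.6. A non-coding Bcl2l11 transcript of GENCODE and a RefSeq transcript start inside it, however, so it is a start site by those models. The stretch before the first start site and the second region are printed for comparison.
Bcl2l11 promoter: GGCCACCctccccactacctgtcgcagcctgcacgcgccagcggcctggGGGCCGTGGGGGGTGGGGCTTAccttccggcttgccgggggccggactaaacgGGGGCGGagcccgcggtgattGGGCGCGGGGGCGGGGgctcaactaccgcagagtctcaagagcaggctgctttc
Bcl2l11 intronic region: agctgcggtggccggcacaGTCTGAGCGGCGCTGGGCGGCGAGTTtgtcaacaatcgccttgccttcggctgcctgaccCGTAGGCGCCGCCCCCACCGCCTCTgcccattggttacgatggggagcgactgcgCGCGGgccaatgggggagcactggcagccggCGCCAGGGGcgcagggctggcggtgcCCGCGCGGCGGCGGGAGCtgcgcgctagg
Both hold GC boxes in capitals, 2 in each. KLF words occur 6 times in the first, in part over the GC boxes or each other, and 1 time in the second, over a GC box. Of their bases 29.4% and 37.7% were in a footprint of both libraries. The second sequence has 2 CCAAT boxes and the first has 1. The other 11 regions of the Bcl2l11 window that lay away from start sites had mean signals of 0.567 to 2.56, and no other coding gene starts in the window.

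Bad encodes a BH3-only protein that growth factor signalling keeps phosphorylated and inactive. Its highest promoter peak had signals of 14.2 and 11.4 (12.8 ± 2.01, n = 2, percentile 80.5), but this peak covers a start site of the neighbour Gpr137, 201 to 221 bp from the nearest Bad start. The peak over Bad's most upstream start site alone had 8.05 and 6.61 (7.33 ± 1.02, n = 2). With peaks that cover another gene's start site left out for every gene, Bad stood at percentile 63.5. Another peak, of 11.6 and 9.65, covered start sites of both genes. The promoter windows of Bad held the most footprints of any member, 23 in replicate 1 and 27 in replicate 2, of which 18 were in both. Bad has 8 coding start sites, and this count depends on the width of its windows. Of the 24 shared regions in its window, 17 were promoters of the 13 other coding genes that start there and 2 were away from any start site.

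Bid encodes the protein that caspase-8 cleaves, which carries a death receptor signal to the mitochondrion. Its promoter had 1 peak in each library, of 12.2 and 12.0 (12.1 ± 0.0915, n = 2, percentile 77.9), and 4 footprints in each library, all found in both. Of its 11 regions away from start sites, 9 lay in its introns. The strongest of those, at chr6:120915301-120915520 and 1442 bp into the gene, had signals of 4.39 and 4.03 (4.21 ± 0.255, n = 2, percentile 95.3), and a start site of the annotated transcript Gm44260 lies 308 bp from it. The other 8 intronic regions had mean signals of at most 1.33.

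Bbc3 encodes PUMA, a BH3-only protein and main mediator of death after p53 activation. The highest promoter peak of each library had 9.52 in replicate 1 and 7.81 in replicate 2 (8.66 ± 1.21, n = 2, percentile 64.2). These were different peaks, so the mean and SD describe no single region. The region with the highest mean had 8.54 ± 1.04 (n = 2). Both peaks lay within the gene. At the most upstream start site the nearest peak had only 0.527 and 0.642 and is in neither stricter list, whereas the region over the next start site had 9.27 and 7.81 and the one after it 9.52 and 6.26. The CpG ratio followed the peaks, at 0.228 around the most upstream start site and 0.658 around the start site nearest the strongest shared region. That region up to its start site, chr7:16309441-16309615, is printed for its footprints.
Bbc3 promoter: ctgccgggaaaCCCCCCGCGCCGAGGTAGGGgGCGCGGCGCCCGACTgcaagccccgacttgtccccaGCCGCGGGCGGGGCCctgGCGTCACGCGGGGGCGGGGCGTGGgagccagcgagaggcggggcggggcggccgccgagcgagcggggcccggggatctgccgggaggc
Capitals cover 42.3% of these 175 bases, and KLF words and GC boxes fill several of the runs. Of the 15 RefSeq promoters of the members, 10 held a KLF word, against 57.9% of all promoters, and 10 held a GC box, against 47.7%. The CTCF core word was in 6 of the 15, against 13.3% of all promoters, and 3 of these 6 are overlapping or neighbouring entries of Bbc3.

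The region away from start sites with the highest mean signal in any member window lay in that of Bbc3. It lay 13382 bp upstream of the gene at chr7:16294881-16295140, with signals of 14.1 and 13.2 (13.7 ± 0.644, n = 2), at percentile 99.7 of such regions and above the promoter of Bbc3 itself in both libraries. In replicate 1 the Bcl2l11 intronic region was higher (14.5). The nearest annotated start site was one of Ccdc9, 8086 bp away.
Bbc3 upstream region: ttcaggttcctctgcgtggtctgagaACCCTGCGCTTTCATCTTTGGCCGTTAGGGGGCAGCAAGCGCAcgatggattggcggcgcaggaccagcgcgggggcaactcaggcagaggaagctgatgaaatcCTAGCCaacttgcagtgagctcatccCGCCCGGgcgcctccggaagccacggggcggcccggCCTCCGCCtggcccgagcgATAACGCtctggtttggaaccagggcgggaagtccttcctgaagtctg
The CTCF core word AGGGGGC stands at positions 53 to 59, wholly inside the first long footprint. CTCF is known to bind a much longer sequence at domain borders and loop anchors, and its binding was not measured. The core word alone was in 13.5% of the member regions of this kind and in 12.2% of all of them. Beside this region stood others, at 4.96 and 3.60 and at 7.40 and 4.54, the last 11412 bp upstream. Inside the gene, a region 5698 bp from the start had 6.74 and 4.22. With 27 shared regions, or 24.6 per 100 kb, the Bbc3 window was the densest of the 10 in shared regions, above 98.9% of all genes. In replicate 2 alone the Bad window was denser than that of Bbc3, which had 29.1 per 100 kb there.

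Pmaip1 encodes NOXA, a BH3-only protein that binds MCL1. Its promoter peak had signals of 2.81 and 2.46 (2.64 ± 0.242, n = 2, percentile 30.9), and both values lay below every value of the 8 stronger members. The peak covered the start site, at chr18:66458441-66458640, with 5 footprints in replicate 1 and 6 in replicate 2 over the windows, 3 of them in both. Its CpG ratio of 0.972 was the highest of the members. As at Bcl2, the sequence was CpG-rich and the peak low. The window held 4 shared regions, 3.74 per 100 kb, and the 3 away from the promoter had mean signals of 0.497 to 1.04.

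Over all windows, 225 regions were found, of which 166 were shared by both libraries. Of the shared ones 24 were promoters of the members, 46 promoters of other genes and 96 lay more than 1 kb from any coding start site, 29 of these in introns of the member. The median member window held 17 shared regions, against 6 over all genes and 9 over open genes. Per 100 kb the medians were 15.7 for the members, 4.52 for all genes and 6.39 for open genes. Counting shared regions, Bcl2 and Pmaip1 were below both of these densities, and the other 8 were above both. Pmaip1 kept that place in replicate 1 alone (4.67, against 5.50 over all genes) but not in replicate 2 alone (7.47, against 5.77 over all genes and 7.96 over open genes). Bcl2 had 4.35 in replicate 1 alone and 5.43 in replicate 2 alone, below all genes in each. For Bad, 17 of 24 regions were promoters of neighbouring genes, so a high count does not mean many regions outside promoters.

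**Figure D3:**
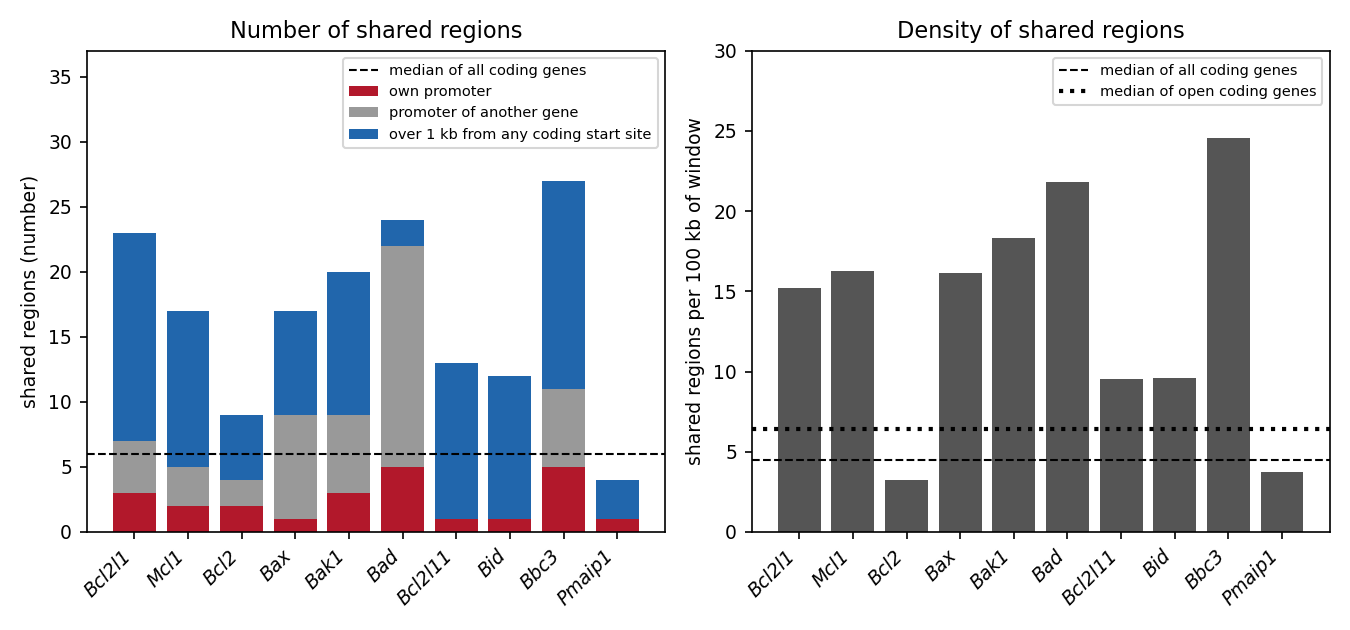
Shared regions in the window of each member, as numbers split by kind (left) and per 100 kb of window (right), with medians over coding genes as lines. Bcl2 with 3.26 and Pmaip1 with 3.74 per 100 kb lie below both lines, and Bbc3 reaches 24.6.

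The 96 regions away from start sites had a median signal of 1.22, against 0.829 over all 38204 such regions, and 11 of them were above the 95th percentile of those. A footprint of both libraries was found in 75 of the 96, against 78.3% of all. The 59 regions seen in 1 library only were weak, between 0.217 and 0.956 with a median of 0.511, and 39 of them were in replicate 2, which had the longer list. In the member windows 89.5% of replicate 1 peaks and 81.5% of replicate 2 peaks overlapped a peak of the other library, against 77.3% and 69.7% in the whole genome.

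**Figure D4:**
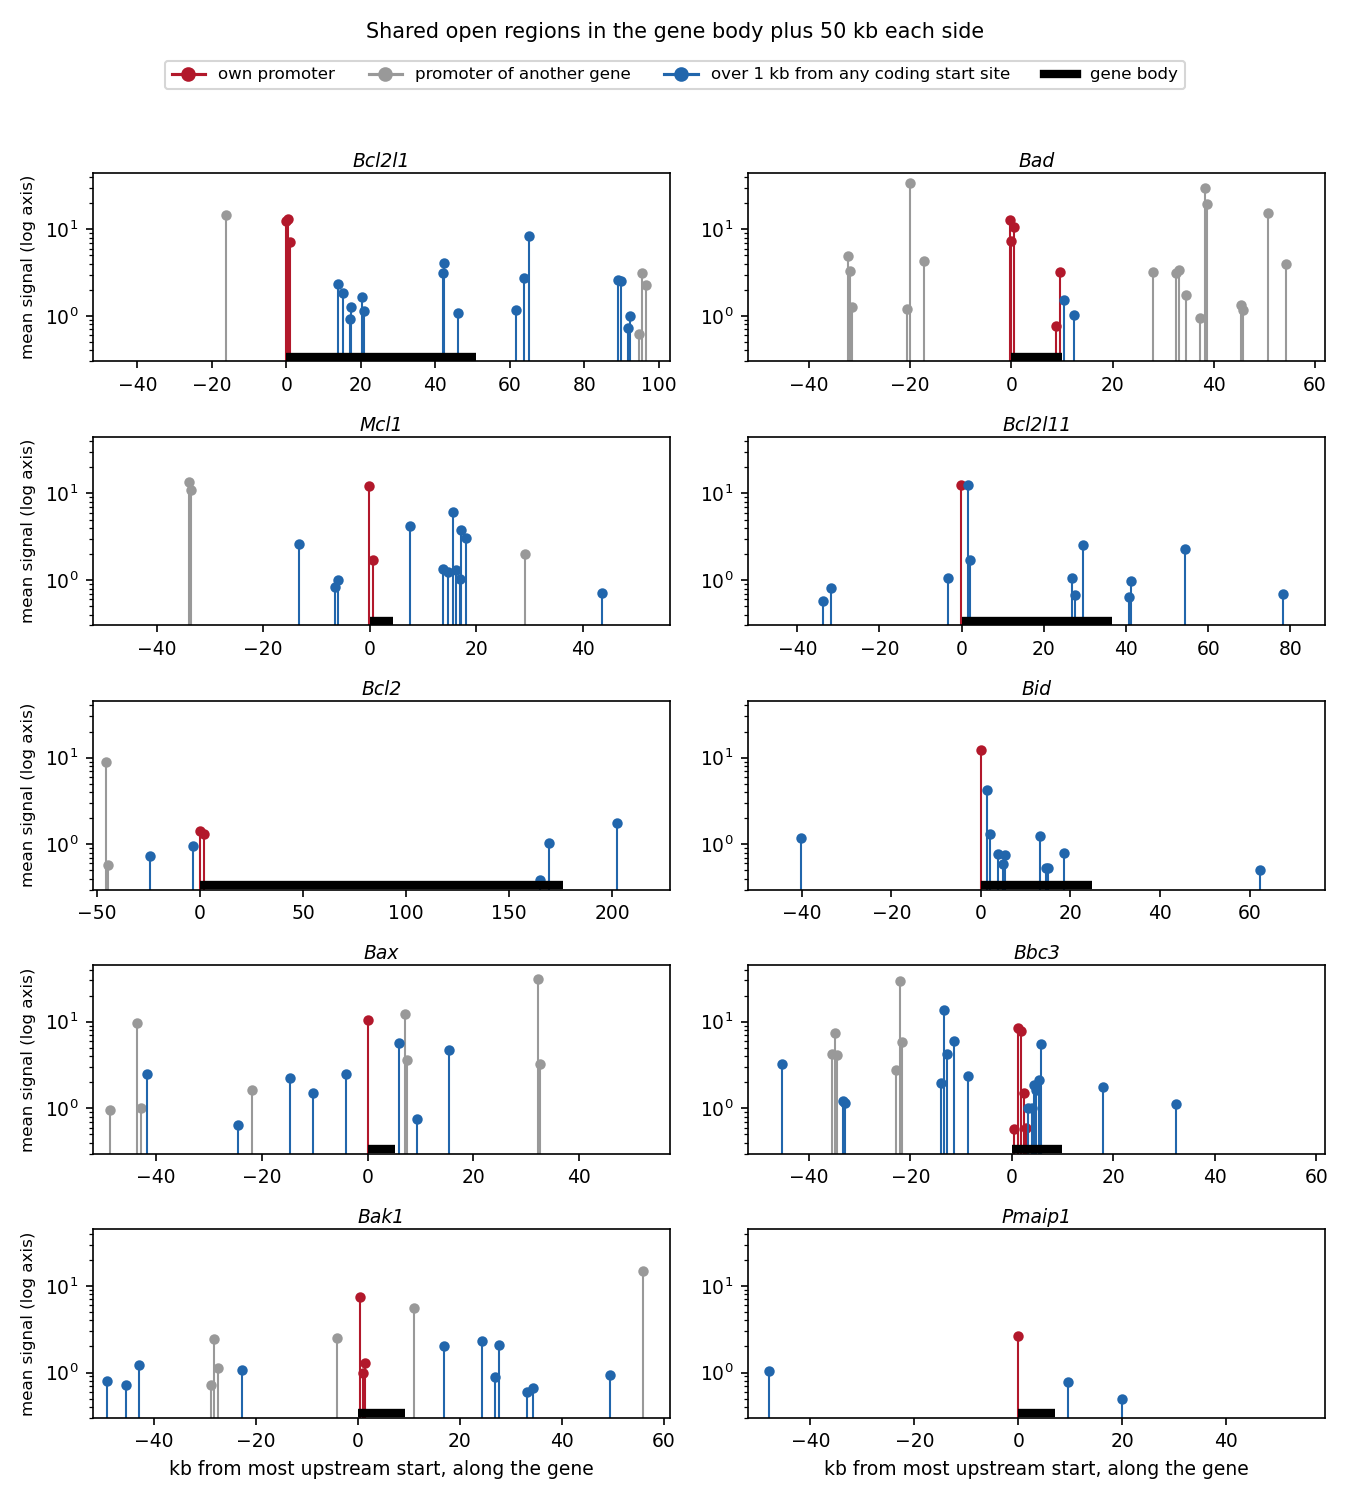
Shared regions of each member by distance from the most upstream start site along the gene (horizontal axis, kb) and mean signal of the 2 libraries (vertical log axis, authors' scale), coloured by kind, with the gene body as a black bar. The region 13382 bp upstream of Bbc3 stands above the gene's own promoter, as does the low region of 1.78 past the 3′ end of Bcl2. The region 1433 bp into Bcl2l11 does so in the mean, but in replicate 2 it was below the promoter (10.9, against 11.7).

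Words of p53 and AP-1 were also counted in the 96 regions. A p53 decamer was in 5 of them (5.21%), against 6.91% of all such regions. The AP-1 word TGANTCA was in 12 (12.5%), against 6.65%. KLF words were in 44.8%, against 30.8%, and GC boxes in 21.9%, against 14.0%. Regions of 1 window share a neighbourhood and its base composition, so these shares are given with no test.

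Other genes of the pathway were read from 4 lists. Of 16 other BCL2 family and associated genes, 11 had a promoter peak in both libraries (68.8%, against 60.8% of all genes), with a median signal of 5.91. The strongest were Bclaf1, which encodes a nuclear BCL2-associated factor (30.8 ± 6.04, n = 2), and Bnip3l, which encodes NIX, the receptor that clears mitochondria from maturing red cells (26.8 ± 0.599, n = 2). Bcl2a1d and Bcl2l10 had no promoter peak in either library, nor had Bcl2l15, named after its values were seen, and Bcl2l14 and Hrk had one in replicate 2 only, of 0.364 and 0.384. The Bcl2a1 genes are near-identical copies, so their peaks are uncertain.

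The list of apoptosome and caspase genes also holds caspase inhibitors and channels of the outer mitochondrial membrane. All 16 of its genes had a promoter peak in both libraries, against 60.8% of all genes, with a median signal of 12.5. Apaf1, the scaffold of the apoptosome, reached 29.6 ± 6.28 and Cycs, cytochrome c, 23.5 ± 2.36 (n = 2 each). Both lay above every member. Of 12 death receptor genes 10 were open (83.3%, against 60.8% of all genes), but with a median of 1.99. Traf2, an adaptor of TNF receptors, had 15.8 ± 1.39, and Ripk1, the kinase at the receptor complex, 8.95 ± 1.73 (n = 2 each). Fasl, the ligand of FAS, and Tnfrsf10b, the mouse TRAIL receptor, had no promoter peak.

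Of 15 regulators that act on the members, 14 were open (93.3%, against 60.8% of all genes), with a median of 10.6. The strongest were Fbxw7, part of the ubiquitin ligase that turns over MCL1 (25.9 ± 5.80, n = 2), and Ddit3, which encodes the stress factor CHOP, an inducer of BIM (24.5 ± 5.11, n = 2). Trp73, a relative of p53, had no promoter peak. The medians of open genes were thus 11.2 for the members, 5.91 for other family genes, 12.5 for apoptosome and caspase genes, 1.99 for death receptor genes and 10.6 for the regulators, beside 5.82 for all open genes.

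**Figure D5:**
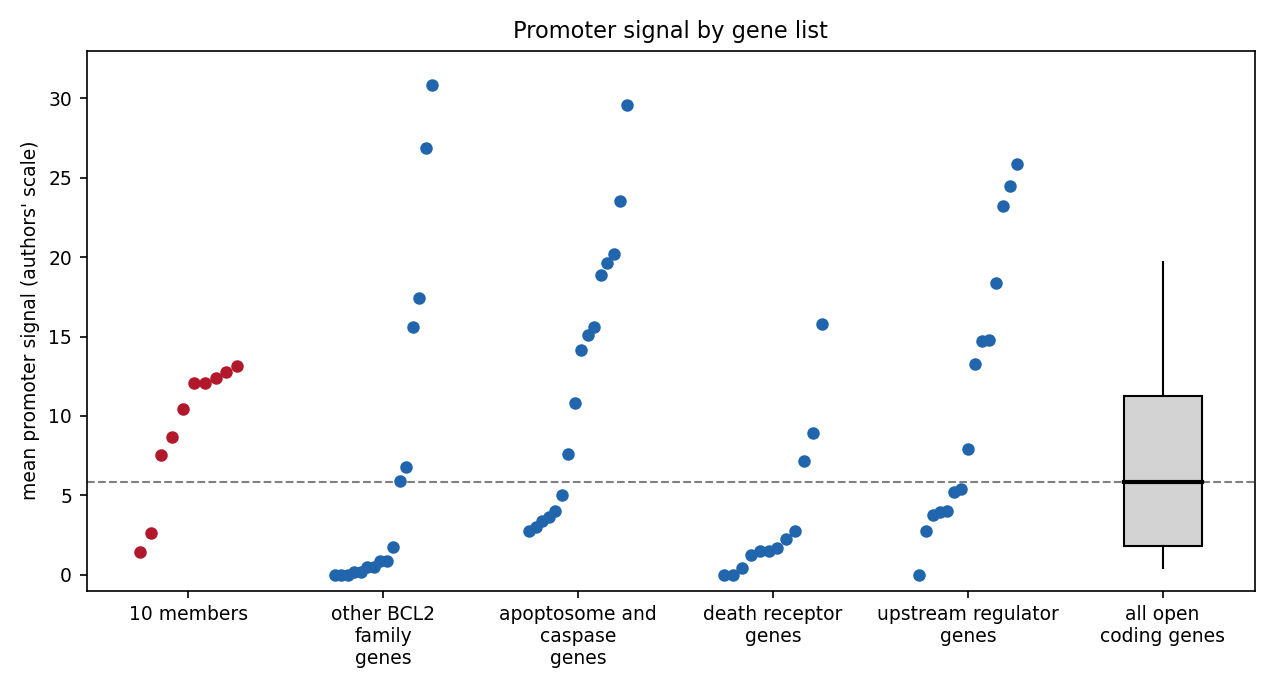
Mean promoter signal of the 2 libraries (vertical axis, authors' scale) for the members, the 4 lists and all open coding genes, where each point is 1 gene, 0 means no peak in either library, and the box and whiskers give the 25th to 75th and 5th to 95th percentiles. The death receptor genes sit low with a median of 1.99 among open ones, and the apoptosome and caspase genes high with 12.5.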

How the data were processed

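The values are those of 2 DNase-seq libraries of 1 group. Per the file headers and listings, peaks, footprints and FDR stretches were made from each library alone on mm10. Names and versions of aligner and callers were not given in the sources used here. The handling of CAST/EiJ reads on a C57BL/6J genome is likewise unknown. The deposited signal per peak (column 7) has no stated scale, and whether both libraries share one was not tested. The deposited FDR (q-value) of footprints is 0.01 in every line, so it does not rank footprints. The FDR stretches hold values under 0.05. Other signal files were not analysed here.

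Promoter signal is the highest peak of the longer list within 1 kb of any protein-coding start site (GENCODE vM21, 54361 start sites). It was taken in each library on its own, so the 2 values of a gene can come from different peaks, as at Bbc3. Peaks of both libraries overlapping by at least 1 bp were merged into shared regions. Percentiles are the share of the 13282 open genes with a lower mean. CpG ratios are over 1000 bp on the most upstream start site. Words were searched on both strands in 300-base RefSeq promoters (GRCm38.p6, 15 entries for 9 members, none for Pmaip1) and in 200-bp windows on region midpoints. Words of one kind may overlap words of another. Printed sequences are the mm10 reference with UTR bases left out, and were chosen after their values were seen. Python 3.11.15, numpy 2.4.6, scipy 1.17.1, pysam 0.24.0 and samtools 1.23.1 were used, and the overlap code was checked on simulated intervals.

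With 1 group there is no contrast, so no test was run and values are described as mean ± SD. Each SD is of signals as deposited and includes the general difference between the libraries. A small SD, as at Bcl2 and Bid, therefore does not mean the smallest difference after centring. The replicates were taken as separate animals from their animal numbers, though the labels give both the same donor entry. The members and lists were chosen with earlier results of these data known. Named from each list were the 2 strongest promoters, as many as 2 lacking any peak and as many as 2 seen in 1 library, and for each member the strongest regions. Other regions and words named were chosen after their values were seen. Alternatives were each library alone, the stricter list, other windows, other overlaps, the sum of peaks and, chosen after seeing the data, a peak over an own start site and leaving out peaks over other genes' start sites.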

Additional observations from a re-analysis of the deposited data

How the results depend on the processing

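No paired analysis was possible because the study has 1 group. All 10 members had a promoter peak in both libraries, or in the library kept, under each of the 8 planned settings and the 1 added setting, while the count over all genes ran from 13771 to 13852 in 1 library alone and was 10198 where a peak had to cover an own start site. In 1 library alone the shared regions of the members together became 186 to 205 regions, with a median of 17.5 to 19.5 a member, and the median promoter signal of the members was 9.75 to 11.9. Without replicate 1, Bcl2 had 15 regions in place of 9 and Pmaip1 had 8 in place of 4. With the gene body alone there were 54 shared regions (median 4, against 1 over all genes), and with flanks of 10 kb 77 (median 7, against 3), as the windows are shorter. With peaks over other genes' start sites left out, the members' median signal was 9.55, against 4.78 over open genes. With an overlap of at least 50% of each peak, 79.5% of replicate 1 and 72.0% of replicate 2 peaks in the windows were matched. With both libraries kept, 42 of 50 alternative signals of single members stayed within 1 SD, and the sum of peaks moved most of the rest. Most signals that stayed were the same highest peak again, which the changed window or filter kept. Their staying is therefore no sign of stability. Of the percentiles, 24 of 50 moved by more than 1 SD, and 20 of 40 region counts moved by over 1.5 times. The signal of 1 library alone always lies within 1 SD of the mean of 2, so it was not counted. With 2 libraries an SD is itself poorly known, read depth is unknown, peaks under 1 in signal may be missed in either library, and the hybrid genome was read on 1 reference.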
